A study of Mus musculus with 18 samples.

Results

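Cutaneous squamous cell carcinoma (cuSCC) was compared with papilloma (PAP), the benign tumour, from the same chronically irradiated mice, in 12 of the 18 microRNA libraries of the series. The 6 cuSCC libraries were set against the 6 PAP libraries, and a microRNA was kept where its value lay above the lowest value of the table in at least 6 of all 18 libraries. Of 1251 entries, 293 were kept and tested. The comparison asks which microRNAs change between the benign and the malignant stage of skin tumours that arise under ultraviolet radiation (UVR).

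The mice were female littermates of the SKH-1E Hairless strain, an outbred hairless line that forms skin tumours readily under UVR. All 6 animals received chronic UVB from solar simulators, and each gave 1 library of low-grade papilloma, 1 of low-grade cuSCC and 1 of chronically irradiated skin without a lesion (CHR). No animal was genetically engineered or treated with a drug, and all 3 sample types shared the irradiation, so unexposed skin was not part of this comparison. The mice were numbered 2, 3, 7, 8, 9 and 10, and PAP and cuSCC of the same number came from the same animal. CHR is given only as a side-by-side level. In these bulk tissue samples, fewer cells of a type and less of a microRNA per cell cannot be told apart.

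A microRNA is a short RNA that guides Argonaute proteins to messenger RNAs, mostly through its seed, bases 2 to 8, and lowers their translation or stability. Many microRNAs mark a cell type. miR-143 and miR-145 are typical of smooth muscle and fibroblasts, miR-126 of endothelium, miR-142 and miR-223 of blood-derived cells, the miR-1, miR-133 and miR-206 family of striated muscle, and miR-205, miR-203 and the miR-200 family of epithelium. A library of a whole tumour holds the microRNAs of its stroma, vessels and leukocytes next to those of its keratinocytes.

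The values are log2 values of a share of usable reads, given in ppm, after quantile normalization, which gives all libraries nearly the same set of values, so each value is in effect a rank within its library. The lowest value, 10 ppm or 3.3219 on the log2 scale, was read as not detected. PAP libraries held fewer detected entries (163 to 281) than cuSCC libraries (236 or more, with a median of 301.5). The summed level of entries that resemble ribosomal RNA was 12.49 to 17.72 on the log2 scale in PAP, 9.95 to 15.42 in cuSCC and 9.62 to 13.25 in CHR. Mouse 10 stood apart. Its differences between cuSCC and PAP correlated with the mean of the other mice at r = 0.14 over the 293 microRNAs, against 0.42 to 0.65 for the other 5 mice, a description over microRNAs that are not independent. The PAP of mouse 10 had the fewest detected entries, and both of its tumours had the highest level of ribosomal RNA-like entries of their type. The epithelial marker miR-205-5p was at 17.37 to 18.47 in all 12 tumours, close to the highest value of the table.

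**Figure D1:**
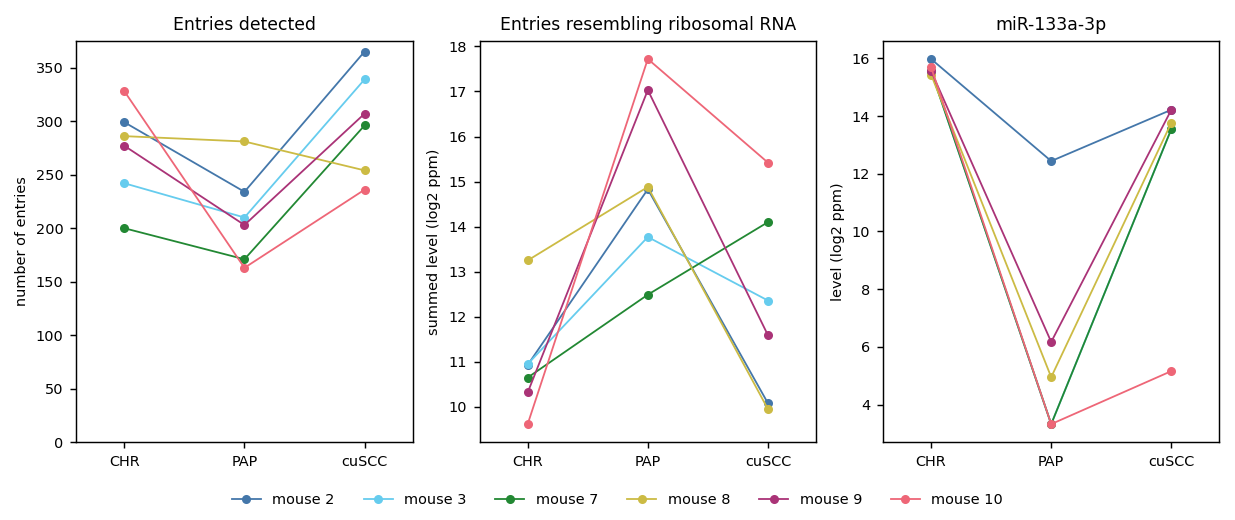
Number of entries detected (left), summed level of entries that resemble ribosomal RNA in log2 ppm (middle) and level of the muscle microRNA miR-133a-3p in log2 ppm (right) in CHR, PAP and cuSCC, 1 point per library with lines joining the samples of a mouse. PAP had the fewest detected entries in 5 of 6 mice and the highest ribosomal RNA-like level in 5 of 6 mice, and miR-133a-3p was low in 5 PAP and in the cuSCC of mouse 10 (5.16).

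The mature sequences of the microRNAs that the results turn on are shown first, since the seed sets which messenger RNAs each can pair with. They were copied from RefSeq (GRCm38), which held 25 of the 34 called entries. Capitals mark the seed. The following rose in cuSCC.
miR-142-5p: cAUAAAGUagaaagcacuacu
miR-10b-5p: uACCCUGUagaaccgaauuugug
miR-126-3p: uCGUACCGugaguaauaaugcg
miR-22-3p: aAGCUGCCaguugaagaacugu
miR-199a-3p and miR-199b-3p: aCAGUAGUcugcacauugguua
miR-21a-5p: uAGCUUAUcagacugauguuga
miR-34a-5p: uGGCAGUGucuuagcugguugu
miR-206-3p: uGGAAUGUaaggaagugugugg
miR-133b-3p: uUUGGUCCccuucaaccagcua
miR-322-5p: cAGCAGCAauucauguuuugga
miR-195a-3p: cCAAUAUUggcugugcugcucc
miR-134-5p: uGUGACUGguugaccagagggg
miR-96-5p: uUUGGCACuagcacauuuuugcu

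The following fell in cuSCC and are shown for the same reason.
miR-200c-3p: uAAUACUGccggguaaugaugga
miR-149-5p: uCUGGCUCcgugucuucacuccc
let-7b-5p: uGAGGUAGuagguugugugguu
miR-1198-5p: uAUGUGUUccuggcuggcuugg

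Apart from miR-199a-3p and miR-199b-3p, which are 1 sequence made from 3 hairpins and had identical values, no seed was shared among the called microRNAs with a sequence. Called entries without a sequence here could not be compared. Among them were miR-133a-3p, by its name a relative of miR-133b-3p, and miR-669a-3p and miR-669o-3p. Seeds were read for 245 of the 293 tested entries, and 33 seeds were shared by at least 2 of them. In the family of miR-322-5p, with the seed AGCAGCA, 6 tested members ranged from -0.60 (miR-15b-5p) to 2.45 on the log2 scale. In the family of let-7b-5p, with the seed GAGGUAG, 9 tested members ranged from -1.03 to 0.84, and let-7b-5p was its only called member. In that of miR-200c-3p, with the seed AAUACUG, 3 tested members ranged from -1.45 to -0.09. Whether members with the same seed differed from each other in their change was not tested.

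Between cuSCC and PAP, 34 of the 293 microRNAs differed at an adjusted p under 0.05 (limma, Benjamini-Hochberg), 27 higher in cuSCC (9.22% of those tested) and 7 lower (2.39%). With entries of identical values counted once, there were 31 calls, 25 higher and 6 lower. At a fold of 1.5 and an unadjusted p under 0.05, the thresholds of the study, 52 were higher (17.7%) and 31 lower (10.6%). The 10 largest rises were those of miR-133a-3p, miR-669a-3p, miR-669o-3p, miR-126-5p, miR-206-3p, miR-199a-3p, miR-199b-3p, miR-142-5p, miR-133b-3p and miR-10b-5p, and the falls were led by miR-486-5p, miR-149-5p and miR-200c-3p. The median difference over all tested microRNAs was 0.21 on the log2 scale. Of the 27 rises, 9 were detected in all 6 PAP, 11 in 1 to 5 PAP and 7 in none. The 7 passed the detection filter only through cuSCC and CHR libraries, so their p is no independent support for a rise. The 7 falls were detected in all 12 tumours. In 17 of the 34, all 6 mice moved the same way, and in 4 the cuSCC and PAP values did not overlap. Over all 293 tested, all 6 mice were higher in 30 and lower in 8, and entries without overlap were not counted. The calls were chosen by p from the same values, so these counts are no separate support.

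The number of calls depended on single animals. Without mouse 2, 3, 7, 8 or 9 there were 7, 1, 1, 1 and 9 rises and 2, 0, 0, 0 and 0 falls, whereas without mouse 10 there were 40 rises and 19 falls, among them 32 of the 34. In the limma fits that gave no fall, 14, 24, 12 and 26 microRNAs were lower at the thresholds of the study without mouse 3, 7, 8 and 9. miR-142-5p passed in all 6 fits that left out a mouse, and each of the other 33 lost its call in at least 1 of them, with adjusted p up to 0.176 and with its direction kept in each. With mouse as a replicate block, 21 rises and 3 falls were called, and 20 of the 34 remained. With the ribosomal RNA-like entries removed and the libraries normalized anew, 17 rises and 7 falls were called. The part that the ribosomal RNA-like entries and the lower number of detected entries in PAP had in these counts was otherwise not tested.

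**Figure D2:**
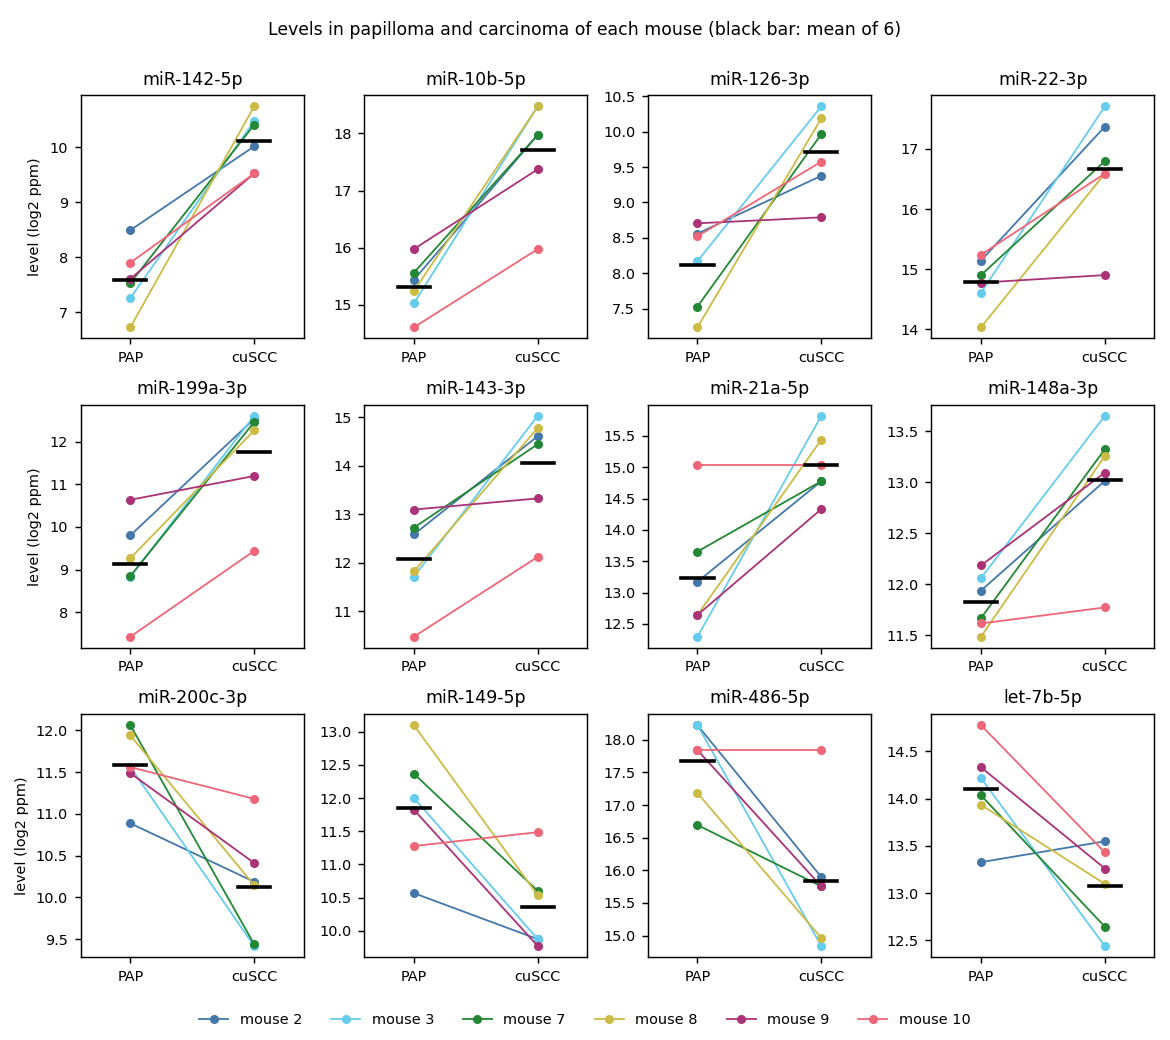
Levels of 12 called microRNAs in log2 ppm in the PAP and cuSCC of each mouse, 1 line per mouse, with black bars for the mean of 6. The top 8 panels are the rises detected in all 12 tumours and the bottom 4 are falls, and PAP and cuSCC do not overlap for miR-142-5p and miR-126-3p.

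miR-142-5p, a microRNA of haematopoietic cells that lies in an intron of Mir142hg (GRCm38, chr11:87756867-87756887, plus strand), had the smallest p of all tested entries. It ranged from 6.72 to 8.49 in PAP, with a median of 7.57, and from 9.52 to 10.74 in cuSCC, with a median of 10.21. The ranges did not overlap and all 6 mice rose, by 2.53 ± 0.34 (log2, SE, n = 6 of each), or 5.79-fold, with an adjusted p of 0.0018. In CHR its median was 8.78. The other arm of the hairpin, miR-142-3p, was detected in 1 CHR, 0 PAP and 1 cuSCC (3.63), too few libraries for a test. The other tested leukocyte markers were higher on average but did not pass the test. miR-223-3p, a microRNA of myeloid cells named here after its values were seen, differed by 1.93 ± 1.22 (adjusted p = 0.308), and was detected in 4 PAP and 6 cuSCC. miR-150-5p, typical of mature lymphocytes, had medians of 10.20 in PAP and 10.11 in cuSCC and a difference of 0.29 ± 0.57. miR-342-3p, also abundant in lymphocytes, had medians of 10.10 and 9.53. Its difference of 0.80 ± 1.07 rested on the PAP of mouse 10, in which it was not detected, and was -0.29 without that library. Of all 16 tested immune microRNAs, 2 were called higher and 0 lower by limma. This is 12.5%, beside 9.22% called higher and 2.39% called lower over all 293. Of the 4 tested leukocyte markers, 1 was thus called, and their median difference was 1.36 beside 0.21 over all tested. It was 0.82 without mouse 10 and 0.53 with undetected values raised to the smallest detected value in their library. The medians over all 293 were 0.13 and -0.48 in these settings. By mouse, their mean difference ran from -0.44 in mouse 2 to 3.15 in mouse 7.

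Among inflammatory microRNAs, miR-146a-5p, which dampens NF-κB signalling, ranged from 7.59 to 10.19 in PAP and from 9.31 to 12.12 in cuSCC. All 6 mice were higher in cuSCC, by 1.58 ± 0.53 on average. The adjusted p was 0.0796, and 0.0435 with mouse as a replicate block. Its relative miR-146b-5p, with the same seed, differed by 0.86 ± 0.51 (adjusted p = 0.282). miR-155-5p, which activated lymphocytes and macrophages make, was not detected in any of the 18 libraries and so was not tested.

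miR-21a-5p, the microRNA raised in many carcinomas and inflamed tissues, lies in an exon of a Vmp1 transcript (chr11:86584120-86584141, minus strand). It ranged from 12.30 to 15.03 in PAP, with a median of 12.91, and from 14.33 to 15.82 in cuSCC, with a median of 14.90. The rise of 1.79 ± 0.45 had an adjusted p of 0.0383, which became 0.0549 with the block. The exception was mouse 10, whose PAP was already at 15.03, the same value as its cuSCC. The other arm, miR-21a-3p, was detected in 4 PAP and 6 cuSCC and differed by 0.85 ± 0.83 (adjusted p = 0.526). In the miR-181 family, abundant in lymphocytes, none of 7 tested members was called by limma, and 1 was higher at the thresholds of the study. miR-181a-5p had medians of 16.26 in PAP and 16.99 in cuSCC and was higher in cuSCC in 6 of 6 mice by 0.95 ± 0.52 (adjusted p = 0.252). miR-181b-5p differed by 0.63 ± 0.43. For both, the PAP of mouse 10 lay far below the other 5.

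Of 35 tested stromal microRNAs, 9 were called higher and 0 lower by limma, and 33 were higher on average, with a median of 1.397. Over all 293, 175 were higher on average. The 35 were 10 fibroblast and smooth muscle entries, 1 of miR-29, 15 of the Dlk1-Dio3 locus, 5 of the Hox clusters and 4 of skeletal muscle. The share called was 25.7%, beside 9.22% higher and 2.39% lower over all 293. The 9 include 3 skeletal muscle microRNAs, 1 of the Dlk1-Dio3 list, 1 of the Hox list and the identical miR-199a-3p and miR-199b-3p. All 10 tested fibroblast and smooth muscle microRNAs were higher on average in cuSCC, 4 of them were called and 7 passed the thresholds of the study, with a median difference of 1.81. It was 1.64 with miR-199a-3p and miR-199b-3p counted once, and 0.96 with undetected values raised to the smallest detected value in their library (-0.48 over all 293). Their mean difference was positive in every mouse, from 0.43 in mouse 9 to 2.86 in mouse 3. The miR-199 and miR-214 hairpins are made from antisense transcripts of dynamin genes in mesenchymal cells. miR-199a-3p, from Dnm3os (chr1:162217883-162217904, plus strand) and from hairpins opposite Dnm2 (chr9:21496498-21496519, minus strand) and Dnm1 (chr2:32318524-32318545, plus strand, miR-199b-3p), ranged from 7.42 to 10.64 in PAP, with a median of 9.05. In cuSCC it ranged from 9.44 to 12.61, with a median of 12.37, so that only the cuSCC of mouse 10 fell within the PAP range. The rise was 2.62 ± 0.63 (adjusted p = 0.0319) and was seen in 6 of 6 mice.

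miR-143-3p, which with miR-145 maintains the contractile state of smooth muscle, ranged from 10.48 to 13.10 in PAP, with a median of 12.20. The cuSCC values ran from 12.12 to 15.03, with a median of 14.53. It rose by 1.98 ± 0.56 (adjusted p = 0.0402) in 6 of 6 mice, and mouse 10 was the lowest in both tumour types. miR-199b-5p was not detected in any PAP and was detected in 5 cuSCC, up to 6.26 (adjusted p = 0.0394, and 0.0564 with the block). No fold is given for it, because PAP was at the lowest value throughout, and it entered the test only through cuSCC and CHR libraries. Its difference was -0.32 with undetected values raised to the smallest detected value in their library. miR-214-3p, which shares Dnm3os with a miR-199a hairpin, had medians of 10.46 in PAP and 11.48 in cuSCC and differed by 1.44 ± 1.29 (adjusted p = 0.479), with no detection in the PAP of mouse 10 and a difference of 0.18 without that library. The other stromal microRNA miR-29a-3p, which represses collagens, differed by 0.53 ± 0.29 (adjusted p = 0.255) and was the only member of 7 miR-29 entries that could be tested.

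The imprinted Dlk1-Dio3 locus on the distal part of mouse chromosome 12 encodes a large microRNA cluster expressed from the maternal allele in embryonic, neural and mesenchymal cells. Of the 15 tested members on the list of this locus, 14 were higher on average in cuSCC. Of these 15, 1 was called and 4 passed the thresholds of the study, with a median of 1.10. The called list member, miR-134-5p, lies in an exon of the long noncoding RNA Mirg (chr12:109734145-109734166, plus strand). It was detected in 1 PAP (4.77, mouse 2) and in 5 cuSCC (up to 6.17), with a difference of 1.59 ± 0.46 and an adjusted p of 0.0410. miR-127-3p, which is antisense to the imprinted Rtl1 gene, was detected in all 12 tumours and had medians of 12.87 in PAP and 13.68 in cuSCC. It was higher in 4 of 6 mice, by 0.90 ± 0.66 (adjusted p = 0.374). miR-434-3p was higher in 6 of 6 mice, by 1.23 ± 0.57 (adjusted p = 0.179). miR-1247-5p, which lies in an exon of Dio3os at the end of the same locus (chr12:110278094-110278115, minus strand), was not in the list and was also called. It was detected in 1 PAP (5.11) and in 5 cuSCC (up to 7.05), with a difference of 2.12 ± 0.57 and an adjusted p of 0.0394. Its other arm, miR-1247-3p, also outside the list, differed by 0.20 (adjusted p = 0.534). miR-1247-5p is given here because it was called, so it is no support for a rise of the locus. Other entries of the locus outside the list were not searched for as a set. Among them, both arms of miR-485 were tested and not called. They differed by 0.12 (5p, limma adjusted p = 0.845) and -0.03 (3p, limma adjusted p = 0.978). Most members were near the limit of detection. With each undetected value raised to the smallest detected value in its library, the median of the list was -0.13, against -0.48 over all 293 in that setting, and miR-134-5p differed by -0.13.

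The miR-10 and miR-196 genes lie within the Hox clusters and mark positional identity along the body axis. miR-10b-5p, in an intron shared by Hoxd3 and Hoxd4 transcripts (chr2:74726074-74726096, plus strand), ranged from 14.61 to 15.98 in PAP, with a median of 15.34. Values in cuSCC were 15.98 to 18.47, with a median of 17.97, against 17.09 in CHR. It rose in 6 of 6 mice by 2.398 ± 0.43 (5.27-fold, adjusted p = 0.0134), the second smallest p of the comparison, and the cuSCC of mouse 10 equalled the highest PAP. miR-10a-5p, which differs from it in sequence but shares the seed ACCCUGU, was higher in 6 of 6 mice by 2.04 ± 0.77, with ranges of 12.37 to 16.37 in PAP and 14.61 to 18.47 in cuSCC (adjusted p = 0.115). Of the 5 tested members of the list, 1 was called, and the median was 1.36, or -0.37 with undetected values at the lowest detected value.

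The largest difference of the comparison was in a skeletal muscle microRNA. miR-133a-3p was not detected in the PAP of 3 mice, was at 4.95 to 6.17 in those of mice 8 and 9 and at 12.44 in that of mouse 2. In cuSCC it was at 13.55 to 14.22 in 5 mice and at 5.16 in mouse 10. All CHR samples were high, with a median of 15.56. The difference was 6.82 ± 1.84 (adjusted p = 0.0394). miR-206-3p and miR-133b-3p, made from neighbouring hairpins 3779 bases apart on chromosome 1 (chr1:20679055-20679076 and chr1:20682834-20682855, plus strand), were detected in no PAP and in the same number of cuSCC, 5 each. Their cuSCC medians were 6.38 and 5.996 (adjusted p = 0.0383 and 0.0319), beside CHR medians of 6.52 and 6.12. Both entered the test only through cuSCC and CHR libraries. Their adjusted p was 0.471 and 0.512 with undetected values raised to the smallest detected value in their library. Of 4 tested muscle microRNAs, 3 were called. miR-1a-3p, also of striated muscle, was detected in 0 CHR, 0 PAP and 1 cuSCC (3.47), too few libraries for a test. The summed level of the 5 detected muscle entries was 5.64 to 12.45 in PAP, 6.24 to 14.24 in cuSCC and 15.44 to 15.98 in CHR. By mouse, the mean difference of the skeletal muscle list was 2.47, 3.67, 4.70, 2.94, 3.80 and 0.46 in mice 2, 3, 7, 8, 9 and 10. That of the fibroblast and smooth muscle list was 1.90, 2.86, 2.46, 1.95, 0.43 and 1.64, and that of the leukocyte list -0.44, 0.02, 3.15, 1.23, 1.28 and 3.09. The part that muscle tissue had in the other rises was not tested.

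**Figure D3:**
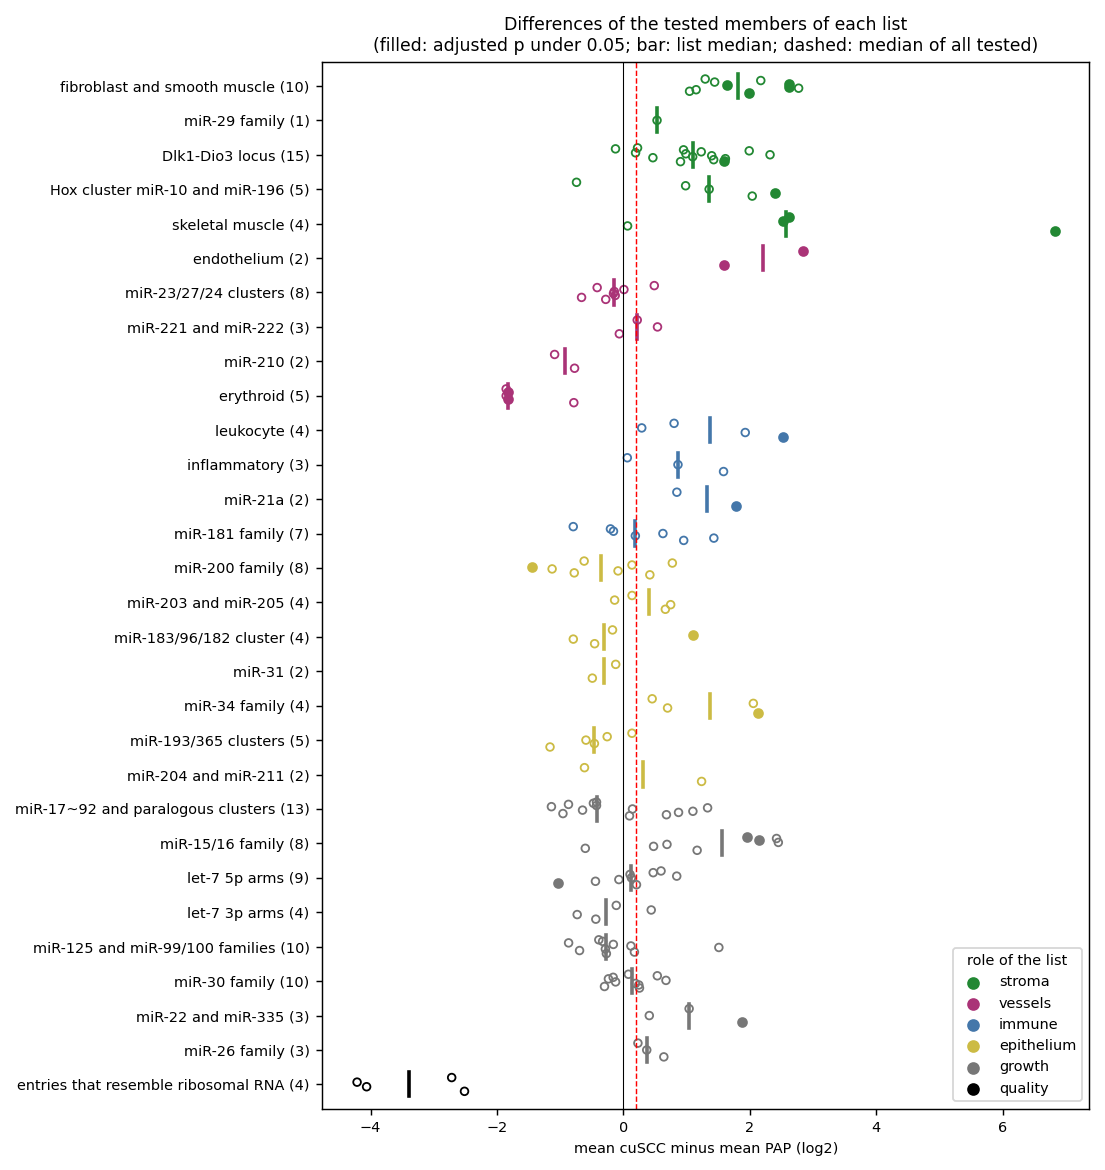
Difference between the mean of cuSCC and the mean of PAP (log2, n = 6 of each) for each tested member of the 30 lists, with the number tested in parentheses, coloured by role. Filled points passed an adjusted p of 0.05, bars are list medians and the dashed line is the median of all tested microRNAs (0.21), and the fibroblast and smooth muscle members all lie to the right of it.

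Both arms of miR-126, the endothelial microRNA encoded in Egfl7 (chr2:26591402-26591423 for the 3p arm, plus strand), rose. miR-126-3p ranged from 7.24 to 8.71 in PAP, with a median of 8.35, and from 8.79 to 10.36 in cuSCC, with a median of 9.77. The ranges did not overlap, and the rise was 1.59 ± 0.36 (3.01-fold, adjusted p = 0.0319) in 6 of 6 mice. With the block its adjusted p was 0.0566. miR-126-5p was detected in 5 PAP, up to 7.05, and in all cuSCC, from 7.40 to 9.96. It rose by 2.84 ± 0.61 (adjusted p = 0.0269), and by 2.28 with undetected values at the lowest detected value. In mouse 9 miR-126-3p was almost level, at 8.71 in PAP and 8.79 in cuSCC.

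In the other vascular lists no member was called higher. Of all 20 tested vascular entries, 2 were called higher and 2 lower (20%, beside 9.22% higher and 2.39% lower over all 293). The rises are both arms of miR-126 and the falls are miR-486-5p and miR-3107-5p, which had identical values, so these are not separate results. In the miR-23, miR-27 and miR-24 clusters, which regulate angiogenesis and many epithelial genes, none of 8 tested members passed either threshold, and their median was -0.15. miR-27b-3p had medians of 16.17 in PAP and 16.26 in cuSCC, and miR-23b-3p differed by -0.66 ± 0.35 (adjusted p = 0.252). miR-221-3p and miR-222-3p, which target the Kit receptor and cell cycle inhibitors, differed by -0.06 ± 0.30 and 0.22 ± 0.35. miR-210, the microRNA induced by hypoxia through HIF1A, was lower in cuSCC at the thresholds of the study in both arms. miR-210-3p had medians of 11.12 in PAP and 10.27 in cuSCC, a difference of -0.77 ± 0.35 (adjusted p = 0.170), while CHR was at 7.92. miR-210-5p differed by -1.09 ± 0.44 (adjusted p = 0.132).

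miR-486-5p, abundant in red blood cells and also made in muscle, fell. Its values are identical to those of miR-3107-5p, a microRNA with an overlapping hairpin, so that the 2 entries are 1 result. It ranged from 16.69 to 18.22 in PAP, with a median of 17.84. In cuSCC it ranged from 14.84 to 17.84, with a median of 15.75. The fall was 1.83 ± 0.49 on the log2 scale (adjusted p = 0.0394), and 5 of 6 cuSCC were below every PAP. In mouse 10 both tumours stood at 17.84. miR-451a, the defining erythroid microRNA and named here after its values were seen, differed by -0.78 ± 0.90 (adjusted p = 0.599), from a median of 10.66 in PAP to 8.98 in cuSCC.

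Of 29 tested epithelial microRNAs, 2 were called higher and 1 lower, with a median of -0.12. The share called was 10.3%, beside 9.22% higher and 2.39% lower over all 293. miR-205-5p and miR-203-3p, which maintain keratinocyte growth and differentiation, differed by -0.14 ± 0.29 (adjusted p = 0.787) and 0.66 ± 0.41 (adjusted p = 0.293). Of 8 tested members of the miR-200 family, which restrains the Zeb repressors of epithelial genes, 1 was called and 2 passed the thresholds of the study, all lower in cuSCC, with a median of -0.35. miR-200c-3p, on chr6:124718324-124718346 (minus strand) within an intron of Gm15884, ranged from 10.89 to 12.06 in PAP, with a median of 11.56. The cuSCC values ran from 9.42 to 11.18, with a median of 10.17, against 10.34 in CHR. It fell by 1.45 ± 0.34 on the log2 scale (2.74-fold, adjusted p = 0.0319) in 6 of 6 mice, with an adjusted p of 0.0549 under the block. miR-200b-3p, with the same seed but from another cluster, had medians of 12.12 in both tumour types (difference -0.09 ± 0.24, adjusted p = 0.838). The cluster partner miR-141-3p differed by 0.14, and it is named after its values were seen. Whether miR-200c-3p differed from its family members in its change was not tested.

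In the cluster of miR-183, miR-96 and miR-182, made in sensory and epithelial cells, miR-182-5p differed by -0.17 ± 0.30 and miR-183-5p by -0.46 ± 0.31. miR-96-5p was called higher, by 1.10 ± 0.32 (chr6:30169506-30169528, minus strand, adjusted p = 0.0422, and 0.0735 with the block), from detection in 1 PAP (3.88) to 5 cuSCC (up to 5.12). These values lie below the lowest detected value of most PAP libraries, and its difference was -0.96 with undetected values at that value. miR-31-5p, which promotes keratinocyte growth in wounds and tumours, had medians of 15.09 in PAP and 14.73 in cuSCC (difference -0.49 ± 0.44, adjusted p = 0.479), with CHR at 11.91, and miR-31-3p differed by -0.12 ± 0.75. The melanocyte and epithelial microRNAs miR-204-5p and miR-211-5p differed by 1.24 ± 0.79 and -0.62 ± 1.21.

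The miR-34 family, transcribed under p53 control, was higher in all 4 tested members, with 1 called and a median of 1.38. miR-34a-5p (chr4:150068473-150068494, plus strand) was detected in 2 PAP, up to 6.01, and in all 6 cuSCC, from 5.07 to 6.90. The rise of 2.14 ± 0.53 (adjusted p = 0.0383) was seen in 6 of 6 mice. miR-34c-5p ranged up to 6.83 in 4 PAP and from 5.74 to 8.43 in cuSCC, with a difference of 2.06 ± 0.72 (adjusted p = 0.0917). The median of the family was -0.46 and the difference of miR-34a-5p 0.28 with undetected values at the lowest detected value. In the miR-193 and miR-365 clusters, which restrain keratinocyte proliferation, none of 5 members was called, miR-193b-3p differed by -1.16 ± 0.43 and was lower in 5 of 6 mice (adjusted p = 0.112), and miR-365-3p differed by -0.59 ± 0.32.

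Of 60 tested microRNAs of growth control, 3 were called higher and 1 lower, with a median of 0.14. The share called was 6.67%, beside 9.22% higher and 2.39% lower over all 293. The oncogenic cluster of miR-17, miR-18a, miR-19, miR-20a and miR-92a and its paralogs had no limma call among 13 tested members. Of these, 1 was higher and 1 lower at the thresholds of the study, and the median was -0.43. miR-92a-3p had medians of 17.37 in PAP and 16.59 in cuSCC (difference -0.65 ± 0.35, adjusted p = 0.252), and miR-25-3p differed by -0.47 ± 0.34. In the miR-15/16 family, which represses cyclins and Bcl2, 7 of 8 tested members were higher, 2 were called and 5 passed the thresholds of the study. The median was 1.56, or 0.58 with undetected values raised to the smallest detected value in their library (-0.48 over all 293). miR-322-5p (chrX:53054306-53054327, minus strand) was detected in 3 PAP, up to 5.76, and in 6 cuSCC, from 5.04 to 7.31. It rose by 1.96 ± 0.53 (adjusted p = 0.0394) in 6 of 6 mice. miR-195a-3p (chr11:70235100-70235121, plus strand) was detected in 2 PAP and 5 cuSCC and rose by 2.14 ± 0.60 (adjusted p = 0.0402). In that setting miR-322-5p differed by 0.45 (adjusted p = 0.531) and miR-195a-3p by 0.48 (adjusted p = 0.547). In contrast, miR-15b-5p was lower in 6 of 6 mice, from a median of 12.40 to 11.80 (difference -0.60 ± 0.23, adjusted p = 0.115), and miR-16-5p differed by 0.69 ± 0.36. Whether these members differed from each other in their change was not tested.

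Of the let-7 family, which represses Ras, Myc and Hmga2 in differentiated cells, 1 of 9 tested 5p arms was called. let-7b-5p (chr15:85707325-85707346, plus strand, in an exon of Lncppara) ranged from 13.33 to 14.78 in PAP, with a median of 14.12. Values in cuSCC were 12.44 to 13.55, with a median of 13.18. It fell by 1.03 ± 0.30 on the log2 scale (adjusted p = 0.0422, and 0.0919 with the block) in 5 of 6 mice, with mouse 2 as the exception. let-7c-5p was lower in 6 of 6 mice, with a difference of -0.44 ± 0.27 (adjusted p = 0.292), while let-7a-5p differed by 0.21 ± 0.26, the same as the median of all tested. Of 4 tested 3p arms none was called, and let-7d-3p differed by -0.73 ± 0.33 and let-7b-3p by -0.44 ± 0.68.

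The miR-125 and miR-99/100 families, with 10 tested members and no limma call, had a median of -0.28. miR-99b-5p, which targets mTOR pathway genes, had medians of 15.75 in PAP and 14.88 in cuSCC (difference -0.87 ± 0.33, adjusted p = 0.115) and miR-125a-5p differed by -0.27 ± 0.35. In the miR-30 family none of 10 members passed either threshold, with 0.25 ± 0.25 for miR-30a-5p and -0.16 ± 0.30 for miR-30d-5p. In the miR-26 family, miR-26a-5p, which targets Ezh2, differed by 0.64 ± 0.25 (adjusted p = 0.117) and miR-26b-5p by 0.37 ± 0.31.

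miR-22-3p, a widely expressed microRNA, rose. It lies in an exon of Mir22hg (chr11:75463772-75463793, plus strand). It ranged from 14.03 to 15.24 in PAP, with a median of 14.84, and from 14.90 to 17.71 in cuSCC, with a median of 16.69. The rise of 1.88 ± 0.43 (3.67-fold, adjusted p = 0.0319) was seen in 6 of 6 mice, although mouse 9 moved only to 14.90. Its CHR median, 14.84, was that of PAP. miR-335-3p, from the imprinted Mest locus, differed by 1.04 ± 0.69 (adjusted p = 0.332).

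Of the 129 tested microRNAs in none of the lists, 9 were called higher and 3 lower (9.30%). miR-669a-3p and miR-669o-3p, from the large rodent cluster in an intron of Sfmbt2, had identical values and count as 1 result. They were detected in no PAP and in the cuSCC of 5 mice, with a median of 7.02 over all 6 and a CHR median of 6.69 (adjusted p = 0.0206), and they were not detected in the cuSCC of mouse 10. Their adjusted p was 0.184 with undetected values raised to the smallest detected value in their library. miR-149-5p, in an intron of the glypican gene Gpc1 (chr1:92850381-92850403, plus strand), ranged from 10.57 to 13.10 in PAP, with a median of 11.91. In cuSCC it ranged from 9.77 to 11.49, with a median of 10.21. It fell by 1.498 ± 0.44 on the log2 scale (adjusted p = 0.0422, and 0.0604 with the block) in 5 of 6 mice, mouse 10 being the exception. miR-328-3p fell by 1.30 ± 0.38 (adjusted p = 0.0411, and 0.0703 with the block) from a PAP median of 8.62 to 7.45 in 6 of 6 mice. miR-1198-5p, in an intron of Gripap1 (chrX:7807142-7807163, plus strand), fell by 1.25 ± 0.34 (adjusted p = 0.0394, and 0.0829 with the block) from 9.37 to 7.98, also in 6 of 6 mice.

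The other 7 rises outside the lists were named after their values were seen. miR-148a-3p, which targets DNA methyltransferase genes, was detected in all 12 tumours, at 11.49 to 12.19 in PAP and 11.77 to 13.65 in cuSCC. It rose by 1.19 ± 0.32 (adjusted p = 0.0394, and 0.0552 with the block) in 6 of 6 mice. The other 6, miR-148b-5p, miR-340-3p, miR-1247-5p (of the Dlk1-Dio3 locus, as above), miR-1843a-5p, miR-1843b-5p and miR-218-1-3p, were detected in 0 to 2 PAP and in 5 or 6 cuSCC, with the highest cuSCC value at 7.09. None of the 6 passed with undetected values raised to the smallest detected value in their library, where their limma adjusted p was 0.305 to 0.867. The block took the adjusted p of miR-340-3p to 0.0632, of miR-148b-5p to 0.109, of miR-1843a-5p to 0.0604 and of miR-218-1-3p to 0.0674.

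**Figure D4:**
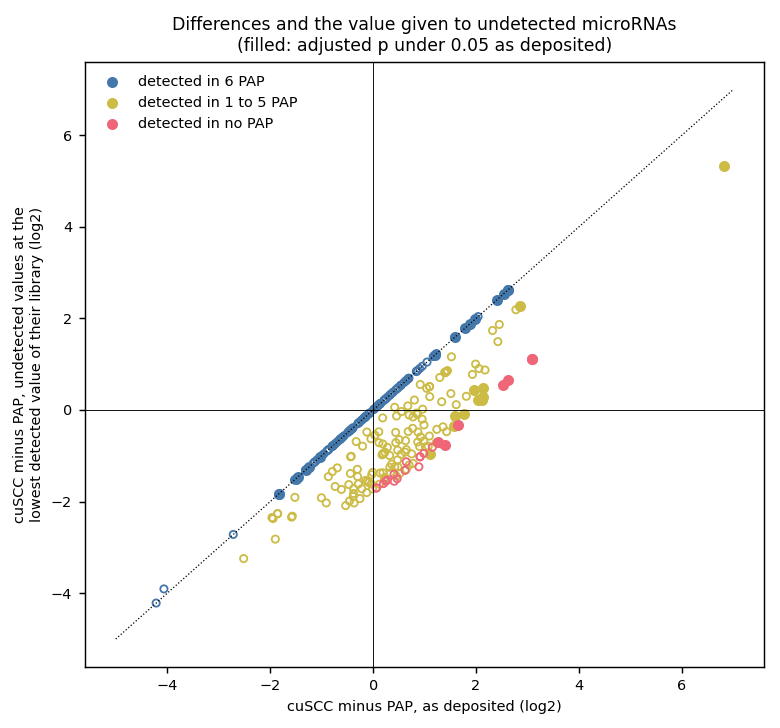
Difference between cuSCC and PAP (log2) of the 293 tested microRNAs as deposited (horizontal) and with undetected values raised to the smallest detected value in their library (vertical), coloured by how many PAP detected them, with filled points for calls as deposited. Calls detected in 6 PAP lie on the dotted line of equality, and 7 of the 27 rises fall below 0 on the vertical axis.

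Detection itself separated the rises into those that do and do not depend on the value given to undetected entries. With undetected values raised to the smallest detected value in their library, 18 of the 34 calls remained. Of the 27 rises, 7 turned negative. All 9 rises detected in every PAP passed the test, as did the 7 falls. The setting left the differences of these calls unchanged, so their passing is no separate support for them. In that setting 18 microRNAs were called higher and 62 lower. Of the 293 tested entries, 22 were detected in no PAP and 0 in no cuSCC. A further 140 entries were detected somewhere but in too few libraries for a test. Of these, 25 were detected in at least 3 cuSCC and in no PAP, and 0 in at least 3 PAP and no cuSCC. miR-18a-5p, of the miR-17 cluster and named after its values were seen, was detected in 5 cuSCC, up to 5.12, and in no PAP or CHR. The lowest detected value of the PAP libraries lay between 3.71 and 6.83, so an entry at this level could not be seen in most of them.

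Where both arms of a hairpin were tested, 47 of 67 hairpins had arms that differed in the same direction, and the median gap between arms was 0.55. Both arms were called for 2 hairpins (miR-126 and miR-199b) and 1 arm for 13. In the miR-106b hairpin, for example, the 5p arm differed by 1.33 and the 3p arm by -1.14 on the log2 scale. This hairpin was chosen after its values were seen, and neither arm was called.

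**Figure D5:**
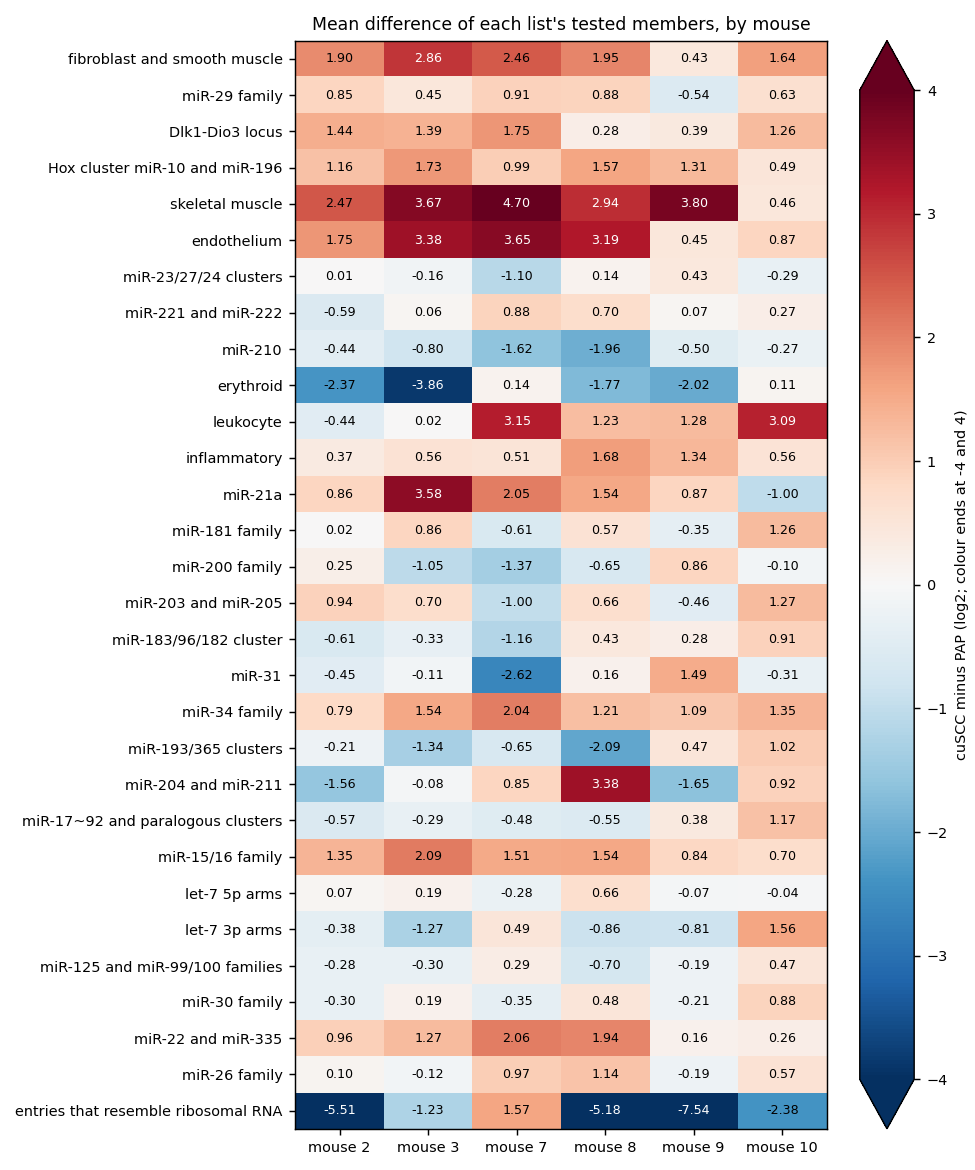
Mean difference between cuSCC and PAP (log2) over the tested members of each list in each mouse, with red for higher and blue for lower in cuSCC. The fibroblast and smooth muscle, skeletal muscle, endothelial, miR-34 and miR-15/16 lists are positive in all 6 mice, and mouse 10 stands apart from the others in skeletal muscle (0.46 against 2.47 to 4.70).

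By mouse, the mean difference was positive in 6 of 6 mice for the fibroblast and smooth muscle, Dlk1-Dio3, Hox, skeletal muscle, endothelial, inflammatory, miR-34, miR-15/16 and miR-22 and miR-335 lists, and negative in 6 of 6 for miR-210. Mouse 9 had the smallest fibroblast and endothelial differences, 0.43 and 0.45, and mouse 10 the smallest muscle difference. The ribosomal RNA-like entries, 4 of which were tested, had a median difference of -3.39 and passed the thresholds of the study in 3. miR-6240 was at 9.77 to 14.90 in PAP and 4.76 to 12.06 in cuSCC (difference -4.21 ± 1.32, adjusted p = 0.0600, and 0.0384 with the block), and miR-6243 at 11.88 to 17.37 and 9.83 to 15.14 (difference -2.72 ± 1.09, adjusted p = 0.132). Among the mice, only mouse 7 had a positive mean difference of these entries (1.57). Set beside CHR, 23 of the 27 rises had a higher median in CHR than in PAP, and 6 of the 7 falls a lower one. The PAP samples were shared by both readings, and entries with identical values were counted separately. The median number of detected entries was 281.5 in CHR and 206.5 in PAP. The calls were chosen by their difference from the same PAP values, so no return to the CHR level is read from these shares. The matching shares over all tested microRNAs are not given here, and whether those of the calls differ from them was not tested.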

How the data were processed

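Small RNA libraries were made from total RNA of 18 mouse skin and tumour samples. The authors trimmed adapters, removed very short and homopolymer-ending reads, aligned the remainder by BLAST against miRBase, and gave every microRNA as ppm of usable reads. The labels name mm10. The deposited values are log2 ppm. That they had been quantile normalized, with a lowest value of 10 ppm, was read from the values. Read counts were not analysed here, and the depth of single values is unknown.

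Values above the lowest value were read as detected. Of 1251 entries, 293 detected in at least 6 of 18 libraries were tested with limma 3.58.1 under R 4.3.3 (moderated by eBayes, two-sided, 6 cuSCC against 6 PAP, no block, Benjamini-Hochberg adjustment), with tables and plots made in Python 3.11.15, pandas 2.3.3 and matplotlib 3.10.9. The test was checked on simulated data. Errors are standard errors of the difference. Named microRNAs are the 10 largest rises and 10 largest falls among those called (7 fell), every called list member, and the 2 members of each list with the highest mean level. The 30 lists, by stroma, vessels, immune cells, epithelium, growth control and library quality, and the members were chosen with earlier results of these data known. That some entries resemble ribosomal RNA was taken as background and not checked. Sequences and positions are RefSeq's (GRCm38), and host genes GENCODE's (M21).

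A sample's number is that of its mouse, which pairs PAP with cuSCC. Their deviations from the group means correlated at r = 0.15, -0.0442, -0.157, -0.0355, 0.0312 and 0.404 in mice 2, 3, 7, 8, 9 and 10. Alternatives were other detection filters, all 3 sample types in the fit, mouse as a block, centring, other values for undetected entries, a trended robust fit, an exact permutation test and leaving out each mouse. Leaving out either tumour of mouse 10 and removing the ribosomal RNA-like entries were chosen after seeing the data.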

Additional observations from a re-analysis of the deposited data

Results flagged for a closer look

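Among the named microRNAs, 15 of the 148 groups of 6 tumours held 1 library that lay far from the other 5 (10.1%). Chance flags about 1 in 20 independent groups, but these groups share libraries, include identical entries and were partly chosen for large changes, so no excess is read from this share. Of the flags, 11 of the 15 were libraries of mouse 10. In the PAP of mouse 10, let-7b-3p, miR-214-3p and miR-342-3p were not detected (3.3219), while the nearest other PAP was at 6.26, 10.17 and 8.13. In the same library miR-181a-5p was at 13.65, against at least 15.98 in the others, and miR-181b-5p at 8.91, against at least 10.82. In the cuSCC of mouse 10, miR-133a-3p was at 5.16, against at least 13.55 in the other 5, and miR-214-3p at 8.14, against at least 11.10. miR-669a-3p and miR-669o-3p, identical entries, were not detected there (3.3219), against at least 5.98 elsewhere. miR-486-5p and miR-3107-5p, also identical, were at 17.84 there, against at most 15.90 in the other cuSCC.

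The other 4 were in PAP. In mouse 2, miR-133a-3p was at 12.44, against at most 6.17 in the other PAP, and miR-134-5p was at 4.77 and not detected in the others. In mouse 8, miR-96-5p was at 3.88 and not detected in the others, and miR-99b-5p was at 16.80, against at most 15.82.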

How the results depend on the processing

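The depth of the libraries is unknown, and entries under the lowest detected value of a PAP library could not be seen in it. The 27 rises and 7 falls became 2 and 0 with all entries detected in at least 1 library tested (55 and 29 at the thresholds of the study), 2 and 0 with a lowest value of 100 ppm (25 and 24), and 0 and 0 with an exact permutation test (46 and 24), whose smallest possible p is 0.00217. With detection in at least 6 of the 12 tumours, 255 entries were tested, with 20 rises and 4 falls. There were 13 falls with all 3 sample types in the fit, 3 with mouse as a replicate block and 62 with undetected values at the lowest detected value of their library. In this last setting the thresholds of the study gave 24 rises and 93 falls, and the median over all tested went from 0.21 to -0.48. Leaving out each mouse or 1 tumour of mouse 10 gave 1 to 40 rises, 0 to 19 falls, 39 to 62 rises at the thresholds of the study and 12 to 41 falls. Without the PAP of mouse 10 there were 11 rises and 4 falls, and without its cuSCC 37 and 14. With ribosomal RNA-like entries removed there were 17 rises. Calls that the block ended are given beside each result, and it changed no other named call. The cause of these shifts was not tested, apart from the fewer samples, or more entries, in some fits.

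Directions turned with undetected values at the lowest detected value for miR-134-5p (-0.13), miR-199b-5p (-0.32), miR-204-5p (-0.42), miR-21a-3p (-0.067) and miR-96-5p (-0.96), and with a lowest value of 100 ppm for miR-21a-3p (-0.28). Leaving out a mouse or a tumour of mouse 10 took 8 uncalled microRNAs across 0, with ranges of -0.077 to 0.71 for miR-150-5p, -0.34 to 0.015 for miR-182-5p, -0.23 to 0.0027 for miR-200b-3p, -1.39 to 0.034 for miR-211-5p, -0.27 to 0.068 for miR-221-3p, -0.38 to 0.14 for miR-27b-3p, -0.64 to 0.55 for miR-31-3p and -0.29 to 1.25 for miR-342-3p. Counting near-identical list members once changed only the median of the fibroblast and smooth muscle list by more than 0.01. A pseudocount was not run, as the values already are log2 values.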
